A study of Mus musculus with 3 samples.

Results

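Amphiregulin, the product of Areg, was read in 466 of 838 dermal regulatory T cells (Tregs), and the 84 cells described here were those with the largest share of their transcripts from that gene. A kept dermal cell had at least 500 UMIs (unique molecular identifiers, each standing for 1 captured transcript), at least 300 genes, at most 10% mitochondrial UMIs and at least 2 UMIs over Cd3d, Cd3e, Cd3g and Cd4. The score of a cell was its Areg UMIs over its total UMIs, and the Areg-high cells were those at or above the 90th percentile. They made up 10.0% of the kept dermal cells, which were themselves part of 10414 kept cells of the series. The comparison cells were the 372 kept dermal cells with no Areg UMI, called Areg-zero. Another 382 cells carried Areg under the cut. Members were chosen by their measured Areg UMIs and total UMIs, so Areg values describe the choice and support nothing.

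Tregs are CD4 T cells that depend on the transcription factor Foxp3 and hold immune responses in check. Amphiregulin is a ligand of the epidermal growth factor (EGF) family. It is made as a membrane-anchored precursor, is released by the protease Adam17, and acts through the EGF receptor on epithelial and stromal cells. Tregs of injured tissues are known to make it, and in T cells the alarmin interleukin 33, interleukin 18 and T cell receptor signals are known to raise it.

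All cells came from adult mice of the Foxp3 reporter strain FOXP3-EGFP (C.Cg-Foxp3tm2Tch/J), in which Foxp3-expressing cells carry green fluorescent protein. There was 1 library each from back-skin epidermis, dermis and lymph node, sorted as GFP+ CD4+ CD3+ CD45+ cells, with no treatment named. Thermolysin parted the skin layers, collagenase then released the dermal cells, and lymph node was mashed. The skin libraries used the 10x 3' v3 kit and lymph node the v2 kit. How many mice were used, their sex and their exact age were not stated in the sources used here. Each tissue is thus a single library and its cells cannot stand for replicates: no test was run, and every interval below is a 95% interval that covers counting error only.

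The promoter of Areg is shown because it holds the one element searched for here that links the gene to cyclic AMP signalling, and that of Cxcl10, a chemokine gene elsewhere on the same chromosome, is shown as one of the promoters with a binding site for AP-1, the Fos and Jun family dimer. Areg lies on chromosome 5 of mm10, from 91139599 to 91148432 on the forward strand. The sequences are the 250 bases before the start, from RefSeq on GRCm38.p6, 5' to 3'. Capitals mark the motif searched for.
Areg, chr5:91139349-91139598, forward strand: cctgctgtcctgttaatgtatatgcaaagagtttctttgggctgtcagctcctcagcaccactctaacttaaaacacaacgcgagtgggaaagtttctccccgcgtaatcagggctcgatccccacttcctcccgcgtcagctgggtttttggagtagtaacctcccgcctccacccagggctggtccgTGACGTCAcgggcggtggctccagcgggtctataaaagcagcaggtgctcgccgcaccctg
Cxcl10, chr5:92348890-92349139, reverse strand: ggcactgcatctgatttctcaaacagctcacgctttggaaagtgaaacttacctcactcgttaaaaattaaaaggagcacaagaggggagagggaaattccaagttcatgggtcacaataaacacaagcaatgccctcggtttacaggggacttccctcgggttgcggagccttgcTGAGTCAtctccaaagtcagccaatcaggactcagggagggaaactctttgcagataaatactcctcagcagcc

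The Areg promoter held the palindrome TGACGTCA, the cyclic AMP response element read by Creb and Crem proteins, starting 61 bases before the gene's start. This element was present in 1.55% of 32851 RefSeq promoters of that length. The Cxcl10 promoter held an AP-1 site, TGANTCA, starting 74 bases before the start. Both motifs were searched on both strands, and neither motif contains the other. A match describes letters in a window and no binding.

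Before the results, 1 feature of the skin libraries bears on them. A total of 43 cell barcodes were deposited in both skin libraries. For these the deeper copy had a median of 12.6 times the UMIs of the shallower one. The correlation of log counts between the copies had a median of 0.629, against 0.305 between different barcodes, and for 39 of 43 the same barcode gave the best match among the 43 in the other library. Of the kept dermal cells 27 carried such a barcode, 21 of them deeper in epidermis. These included 3 Areg-high cells, 1 of which was deeper in epidermis, and 15 Areg-zero cells, all 15 of which were deeper in epidermis. Counts without these barcodes are given beside the main ones. The dermal and lymph node libraries had 1 barcode in common.

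The Areg-high cells held 55.2% of the 3453 Areg UMIs of the kept dermal cells, with 11.2% of all UMIs. Their Areg UMIs had a lowest value of 3, a median of 19 and a highest value of 78 per cell, and 76 of 84 cells had 10 or more. As CPM, the UMIs of a gene scaled to 1000000 UMIs in total, Areg ranged from 2213 to 10119 with a median of 3492. The signal was spread over the group: the 10 members with the most Areg UMIs held 27.6% of the group's. The cut fell at 2199 CPM. Inside it the nearest cells had 2213 and 2263 CPM, and outside it 2193 and 2118 CPM, so there was no gap in the score at the cut.

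**Figure D1:**
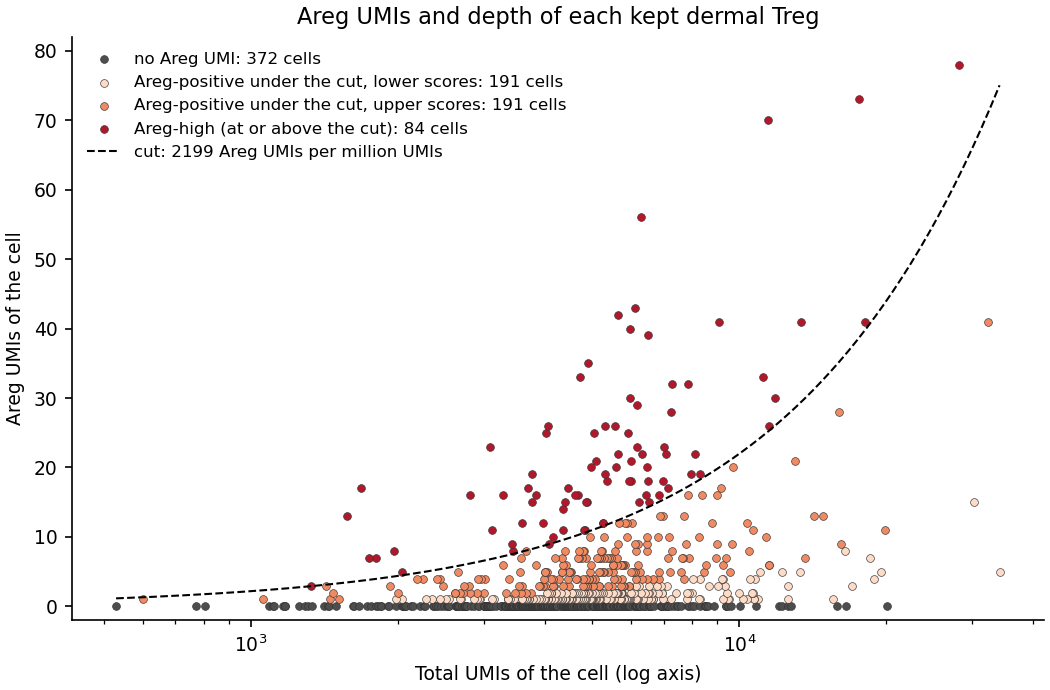
Each point is 1 kept dermal Treg, with its total UMIs on a log axis and its Areg UMIs on the vertical axis, coloured by Areg stratum. The dashed line is the cut of 2199 CPM. The 84 Areg-high cells lie along and above the line from 3 to 78 Areg UMIs, and the cells just under the line follow without a gap.

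Depth differed between the groups. The Areg-high cells had a median of 5334.5 UMIs and 1815 genes, and the Areg-zero cells 4231 UMIs and 1568 genes. Of the Areg-zero cells 299 of 372 had at least 3000 UMIs. A count of 0 at their median depth allows up to 709 CPM of Areg in a single cell, well under the cut. Summed over cells, Areg stood at 3739 CPM (3573 to 3910) in the Areg-high cells. The Areg-positive cells under the cut were split at their median score into 191 upper cells, with 1086 CPM, and 191 lower cells, with 277 CPM. Median mitochondrial shares were 4.07% in the Areg-high and 4.88% in the Areg-zero cells. Xist without any Y-linked UMI was found in 81.0% of the Areg-high and 82.5% of the Areg-zero cells.

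Areg UMIs also appeared outside the gate for T cells. Of 37 dermal barcodes that passed the quality limits but not the gate, 9 carried an Areg UMI, which is 24.3% (Clopper-Pearson 11.8 to 41.2%) at a median of 1282 UMIs. The share among all kept dermal cells was 55.6% at a median of 4813 UMIs. The summed level outside the gate was 319 CPM, and the highest barcode there had 14 Areg UMIs.

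The sorted identity was checked on marker genes. The T cell gate genes were part of the rule and are no check. A UMI of the Treg genes Foxp3, Il2ra, Ctla4, Ikzf2 and Tnfrsf18, as a list, was seen in all 84 Areg-high and in 371 Areg-zero cells. Foxp3 itself stood at 161 CPM in the Areg-high and 146 CPM in the Areg-zero cells, a ratio of 1.10 (0.848 to 1.42). A Foxp3 UMI was seen in 49 of 84 Areg-high cells (58.3%) and 157 of 372 Areg-zero cells (42.2%). After every cell was thinned to 1500 UMIs the shares were 21.7% (13.4 to 32.1%) and 20.3% (16.2 to 24.8%). The gap of 16.1 percentage points in the raw shares was 4.58 points with thinning to 1000 UMIs and 7.05 points with 3000. The unthinned share outside the gate was 10.8%. Il2ra, the high-affinity interleukin 2 receptor chain, was at 302 against 280 CPM. These levels overlapped within counting error.

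Markers of other cell types were low in both groups, apart from the dendritic cell list. Mast cell, neutrophil, melanocyte and erythroid lists had 0 UMIs in the Areg-high cells. Of the 7 genes on the gamma-delta T cell list only 3 were in the data, Cd163l1, Sox13 and Blk. These had 0 UMIs, but without the receptor genes of the list they cannot exclude such cells. Fibroblast genes summed to 1.96 CPM against 11.2 CPM in Areg-zero cells, and macrophage genes to 1.96 against 4.14 CPM. The keratinocyte list summed to 78.5 against 67.9 CPM, nearly all of it Sfn, with Krt5, Krt14, Krt1, Krt15, Krt17 and Dsp at 0 in the Areg-high cells. The dendritic cell list summed to 483 against 480 CPM, led by Cd74 at 341 against 350 CPM. Epcam, H2-Aa and H2-Ab1 were also detected in the Areg-high cells, with Cd207, Itgax, Flt3 and H2-Eb1 at 0. A UMI of this list was seen in 62 Areg-high cells (73.8%) and 247 Areg-zero cells (66.4%). Innate lymphoid cells are another source of amphiregulin: their list summed to 5.89 against 10.0 CPM, with Il13, Il5, Kit, Il23r and Arg1 at 0. Endothelial genes were at 9.81 against 14.2 CPM and B cell genes at 13.7 against 17.1 CPM. The CD8 T and NK cell list was at 62.8 against 96.3 CPM.

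Areg was the only EGF family ligand at a measurable level. The other 10 ligands, among them Hbegf, Ereg, Tgfa, Btc, Epgn and Egf, had 0 UMIs in the Areg-high cells and at most 2 in the Areg-zero cells. On chromosome 5, 13 protein-coding genes of the annotation lie within 500 kb of Areg, and 11 of them had no UMI in the Areg-high cells, including Ereg at 46.0 kb and Epgn at 104 kb. The exceptions were Mthfd2l, a mitochondrial folate enzyme, with 8 UMIs, and Cxcl2, 234 kb away, with 164. Of the genes for release and reception, Adam17 stood at 27.5 against 39.6 CPM and Adam10 at 49.1 against 47.9 CPM. Egfr, Erbb2 and Erbb4 had 0 UMIs in both groups. None of the 5 measured genes of this list, measured meaning 20 CPM or more in 1 group, was counted as different.

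Other genes were then compared between the Areg-high and Areg-zero dermal cells, as summed UMIs in CPM. Genes were counted as different at 1.5-fold with at least 100 CPM in the higher group. Of 1546 genes that reached 100 CPM in 1 group, 112 were counted as higher in the Areg-high cells (7.24%) and 30 as lower (1.94%), with Areg left out of these and of all later counts. Without the barcodes found in both skin libraries the counts were 105 and 29, with 94 and 25 of the same genes. With mitochondrial and ribosomal protein genes left out of the totals they were 123 and 87. Set against all 754 cells under the cut, many of which carry Areg, they were 38 and 9. The median log2 ratio over the 5687 genes at 20 CPM or more was -0.02. These 5687 are the base for the list counts below, and 112 of them were counted as higher and 30 as lower. A gene under 100 CPM in both groups could not be counted.

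Among the 12 highest ratios were Neurl3, Cd83 and Vps37b, which were widely carried. Neurl3, a ubiquitin ligase, stood at 438 CPM in the Areg-high and 184 CPM in the Areg-zero cells, 2.38-fold higher (1.996 to 2.84). It was read in 63 of 84 Areg-high cells, with a median of 282 and a highest value of 2456 CPM per cell, and in 123 of 372 Areg-zero cells, where the median was 0 and the highest 2734. The ranges of single cells thus overlapped fully, and a larger share of the Areg-high cells had a UMI. At so few UMIs per cell, more carrying cells cannot be told apart from a higher level in each cell. Thinned to 1500 UMIs, 45.8% (34.8 to 57.1%) against 21.1% (17.0 to 25.7%) of cells had a Neurl3 UMI. The share of the barcodes outside the gate, 18.9%, is unthinned and so not on the same footing. Cd83, a surface protein of activated lymphocytes and dendritic cells, was at 634 against 279 CPM, 2.27-fold higher (1.97 to 2.62), in 53 of 84 against 136 of 372 cells. Vps37b, a subunit of the ESCRT-I sorting complex, was at 457 against 217 CPM, 2.11-fold higher (1.78 to 2.49).

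Some of the largest ratios rested on few cells. Gramd3 was at 102 against 27.8 CPM, a ratio of 3.67 (2.43 to 5.57), in 24 of the 84 cells, and it fell under 100 CPM without the shared barcodes. Cxcl2, a chemokine that draws neutrophils, was at 322 against 91.0 CPM, a ratio of 3.54 (2.82 to 4.44). Only 14 Areg-high cells had a Cxcl2 UMI, and 5 of them held 79.3% of the UMIs. Without cells above the 95th percentile of UMIs its log2 ratio was 0.57, under the limit. Hilpda, a lipid droplet protein induced by hypoxia, was at 130 against 43.1 CPM in 19 cells. Its top 5 cells held 59.1% of the UMIs, and its log2 ratio was 0.33 with members from the 95th percentile. Cxcl10, the interferon-induced ligand of Cxcr3, was at 218 against 86.3 CPM in 23 cells. Ccrl2, a chemerin-binding receptor, was more widely carried, at 173 against 70.3 CPM in 39 cells, 2.46-fold higher (1.84 to 3.26). Its thinned shares were 19.3% (11.4 to 29.4%) and 9.30% (6.49 to 12.8%), with overlapping intervals.

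**Figure D2:**
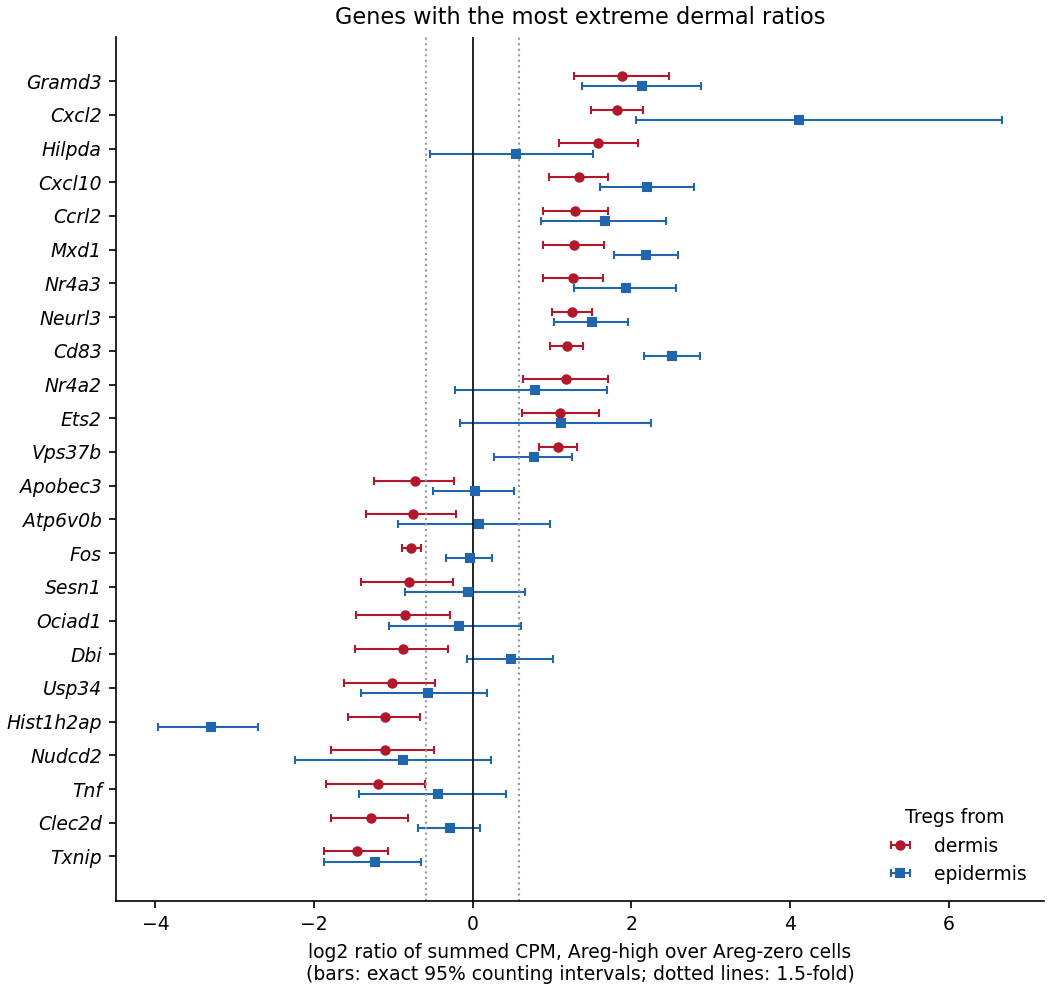
Log2 ratio of summed CPM, Areg-high over Areg-zero cells, for the 12 highest and 12 lowest ranked dermal genes. Predicted genes were among those left out of the ranking. Dermis is shown as red circles and epidermis as blue squares. Bars are exact 95% counting intervals and dotted lines mark 1.5-fold. Neurl3 at 1.25 and Cd83 at 1.18 in dermis lie right of the line in both tissues, Txnip at -1.45 left of it in both, and Fos lies at -0.78 in dermis and -0.04 in epidermis.

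Receptors for alarmins and cytokines sense tissue damage and inflammation. Of the 17 measured, 2 were counted as higher and 0 as lower, beside 112 and 30 of all 5687 measured genes. The median log2 ratio of the list was 0.25. The 2 higher genes were Il21r, at 161 against 78.6 CPM, and the tumour necrosis factor receptor Tnfrsf1b, at 363 against 199 CPM. Il1rl1, the interleukin 33 receptor, stood at 173 against 119 CPM, a ratio of 1.45 (1.12 to 1.88), just under the limit. It was read in 35 of 84 against 96 of 372 cells, and after thinning in 15.7% (8.61 to 25.3%) against 10.7% (7.69 to 14.4%). Il18r1, a chain of the interleukin 18 receptor, was at 82.4 against 69.1 CPM. The thinned shares of Il1rl1 overlapped within counting error. Unthinned, 18.9% of the barcodes outside the gate had a UMI of it.

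Transcription factors known from tissue Tregs gave 6 higher and 1 lower of 16 measured, with a median log2 ratio of 0.40. Rora was at 887 against 584 CPM, 1.52-fold higher (1.36 to 1.70), in 74 of 84 against 276 of 372 cells. Its thinned shares were 62.7% (51.3 to 73.0%) and 48.2% (42.9 to 53.5%), with overlapping intervals. Stat3, which relays interleukin 6 and 21 signals, was at 214 against 112 CPM, 1.91-fold higher (1.49 to 2.42). Nfil3, Id2, Cebpb and Irf4 were the others counted as higher, at ratios from 1.501 to 1.86. Ahr, the aryl hydrocarbon receptor, was counted as lower at 68.7 against 109 CPM. Gata3, at 445 against 375 CPM, Batf, at 143 against 106 CPM, and Ikzf2, at 1658 against 1607 CPM, were not counted. Without the shared barcodes the ratios of Rora and Id2 fell under the limit, at log2 values of 0.56 and 0.57.

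Immediate early genes are transcribed within minutes of stimulation, and dissociation of tissue is known to induce them too. Of 21 measured, 8 were counted as higher and 1 as lower, with a median log2 ratio of 0.38. The members of AP-1 went in different directions. Junb was at 5120 against 2792 CPM, 1.83-fold higher (1.75 to 1.92). Per cell it ranged from 425 to 18878 CPM with a median of 4266 in the Areg-high cells, and from 0 to 14806 with a median of 2203 in the Areg-zero cells. Every Areg-high cell carried Junb, and 343 of 372 Areg-zero cells did. Fosl2 was at 161 against 80.4 CPM, 2.003-fold higher (1.504 to 2.65), and Jund at 5444 against 3513 CPM, 1.55-fold higher.

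Fos itself, the partner of Jun proteins that is induced first, was counted as lower. It stood at 1315 against 2251 CPM, a ratio of 0.584 (0.537 to 0.634). Per cell the median was 807 CPM in the Areg-high cells, with a highest value of 13514, and 1305 CPM in the Areg-zero cells, with a highest value of 23146. Jun was at 141 against 185 CPM and Fosb at 742 against 678 CPM, neither counted. The orphan nuclear receptors of the Nr4a family, which report T cell receptor signals, were all counted as higher: Nr4a1 at 1101 against 603 CPM, Nr4a2 at 100.1 against 44.3 CPM and Nr4a3 at 202 against 83.9 CPM. Nr4a3 was read in 37 of 84 against 84 of 372 cells. Its thinned shares were 21.7% (13.4 to 32.1%) and 11.0% (7.93 to 14.7%), with overlapping intervals. Nr4a2 rested on 17 cells, of which 5 held 56.9% of its UMIs, and it fell under 100 CPM without the shared barcodes. Thinned, it was read in 6.02% (1.98 to 13.5%) against 7.61% (5.07 to 10.9%) of cells, and its call was kept under 16 of 23 alternatives.

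The share of all UMIs on the immediate early list differed with the groups. Its median per cell was 2.19% in Areg-high and 1.56% in Areg-zero cells. The rule for Areg-high cells was then applied anew within the cells at or below the median share of the kept cells. It took 42 cells as Areg-high, not all of them Areg-high by the main cut. Set against 213 Areg-zero cells, 220 genes were counted as higher and 107 as lower. Whether the main Areg-high cells of low share alone keep these calls was not tested. Of the main calls, 89 of 112 higher and 17 of 30 lower genes were among them. Neurl3, at a log2 ratio of 1.53, Cd83, at 1.58, and Fosl2, at 0.68, were still counted as higher, while Cxcl10, Nr4a2, Traf1 and Klf2 were not. The part of dissociation in these differences was not tested.

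Cyclic AMP signalling was examined because of the element in the Areg promoter. Of 17 measured genes, 3 were counted as higher and 0 as lower, with a median log2 ratio of 0.27. They were Crem, the inducible repressor and activator at such elements, at 257 against 160 CPM, Rgs2, a brake on G protein signalling, at 913 against 562 CPM, and the kinase Sik1, at 224 against 147 CPM. Sik1 fell under the limit without the shared barcodes and had a log2 ratio of 0.10 with thinning. Crem also fell under the limit with thinning, at a log2 ratio of 0.35. The Rgs2 call was kept under 17 of 23 alternatives. Its lowest log2 ratio was 0.45, with the Areg-zero cells weighted to the depth of the Areg-high cells. The receptors Adora2a, for adenosine, and Ptger4, for prostaglandin E2, stood at 72.6 against 56.1 and 112 against 119 CPM. The response element was found in the promoters of 3 of the 93 counted-higher genes with a promoter in the table (3.23%), near the 3.37% of tested genes. None of the 27 named higher genes with a promoter held it.

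The other motifs gave the following shares. An AP-1 site was present in 13 of the same 93 genes (13.98%), in 5.81% of the tested genes, in 7.82% of all genes and in 0 of 22 counted-lower genes. Among the named higher genes, Hilpda, Cxcl10, Tnfrsf9 and Gzmb held one. The Nr4a monomer site AAAGGTCA was in 3 of 93 (3.23%), against 1.09% of the tested genes. These shares are descriptions of letters in 250 bases, with no test.

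T cell receptor and NF-kB activation genes gave 8 higher and 0 lower of 20 measured. Their median log2 ratio of 0.43 was the highest among the lists with a measured gene. The median was 0.23 when the comparison was with all cells under the cut. Traf1, a signalling adaptor of tumour necrosis factor receptors, was at 756 against 396 CPM, 1.91-fold higher (1.68 to 2.16). It was read in 72 of 84 against 236 of 372 cells, with medians of 630 and 237 CPM. Inhibitors of NF-kB that are its own targets were among the 8: Nfkbia at 3087 against 1988 CPM, Nfkbid at 400.4 against 229 CPM, Nfkbiz at 404 against 230 CPM and Tnfaip3 at 897 against 550.1 CPM. Rel, at 285 against 179 CPM, and Tnfrsf9, the costimulatory receptor 4-1BB, at 228 against 125 CPM, completed the count with Cd83. Icos, Tnfrsf4, Tnfrsf18 and Cd69 were not counted, at ratios from 0.997 to 1.39.

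Regulators of mRNA decay gave 1 higher gene of 13, Zc3h12a (Regnase-1), at 163 against 102 CPM, which fell under the limit without the shared barcodes. Zfp36l1 and Btg1 stood at ratios of 1.40 and 1.40. Of 14 suppressive mediators 2 were counted as higher. Ctla4, the inhibitory receptor for CD80 and CD86, was at 2873 against 1864 CPM, 1.54-fold higher (1.45 to 1.64). All 84 Areg-high cells carried Ctla4, with 162 CPM in the lowest and a median of 2523, while the median of the Areg-zero cells was 1325. Gzmb, a granule protease, was at 526 against 274 CPM, in 38 cells, of which 5 held 55.6% of the UMIs. With members from the 95th percentile its log2 ratio was 0.27, under the limit. Il10 was at 102 against 96.3 CPM and Tgfb1 at 290.5 against 293 CPM, with intervals of the ratio that include 1.

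Residency and migration genes gave 2 higher of 18. Cxcr4, the receptor for Cxcl12, was at 432 against 206 CPM, 2.10-fold higher (1.77 to 2.49), in 52 of 84 against 156 of 372 cells. Its thinned shares were 33.7% (23.7 to 44.9%) and 21.1% (17.0 to 25.7%), with overlapping intervals. Itgav, the alpha V integrin that activates latent TGF-beta together with Itgb8, was at 326 against 201 CPM. Itgb8 itself was at 68.7 against 72.7 CPM, and Itgae, the CD103 chain, at 428 against 439 CPM. Of 15 genes of TGF-beta activation and response, the co-repressors Tgif1, at 326 against 190.3 CPM, and Skil, at 155 against 102 CPM, were counted beside Itgav. The Skil call was kept under 12 of 23 alternatives, with a lowest log2 ratio of 0.34 in cells with a Foxp3 UMI. Klf2, which maintains lymphoid homing, was the 1 higher gene of 15 in the resting list, at 1933 against 1183 CPM. Ccr7 stood at 70.7 against 71.5 CPM.

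Other growth and repair factors did not accompany Areg. Of 22 genes on that list 4 were measured, and 1, Tnf, was counted as lower at 51.0 against 117 CPM, a ratio of 0.436 (0.278 to 0.658). Tff1, a trefoil peptide of mucosal repair, was read in 3 of 84 cells, at 35.3 against 49.6 CPM. Il13, Il5, Il4, Il22, Csf2 and Hgf had 0 UMIs in the Areg-high cells, Vegfa 1 UMI and Ifng 0 against 33 in the Areg-zero cells.

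The metabolic, interferon, proliferation and heat shock lists gave the counts below, beside 112 higher and 30 lower of all 5687 measured genes. Oxidative phosphorylation had 0 of 20 genes counted, with a median log2 ratio of -0.23 and 3 of 20 ratios above 1. Glycolysis and hypoxia had 1 lower gene of 18, Tpi1, whose reads can be shared with pseudogenes, and a median of -0.02. Interferon response had 1 lower gene of 13, Ly6a (Sca-1), at 410.2 against 661 CPM, and a median of -0.03. Proliferation genes had 0 of 11 counted, a median of -0.45 and 2 of 11 ratios above 1. Mki67 was at 15.7 against 25.4 CPM. Stmn1 was at 13.7 against 54.4 CPM, under the level needed for a call. Heat shock chaperones had 0 of 13 counted.

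**Figure D3:**
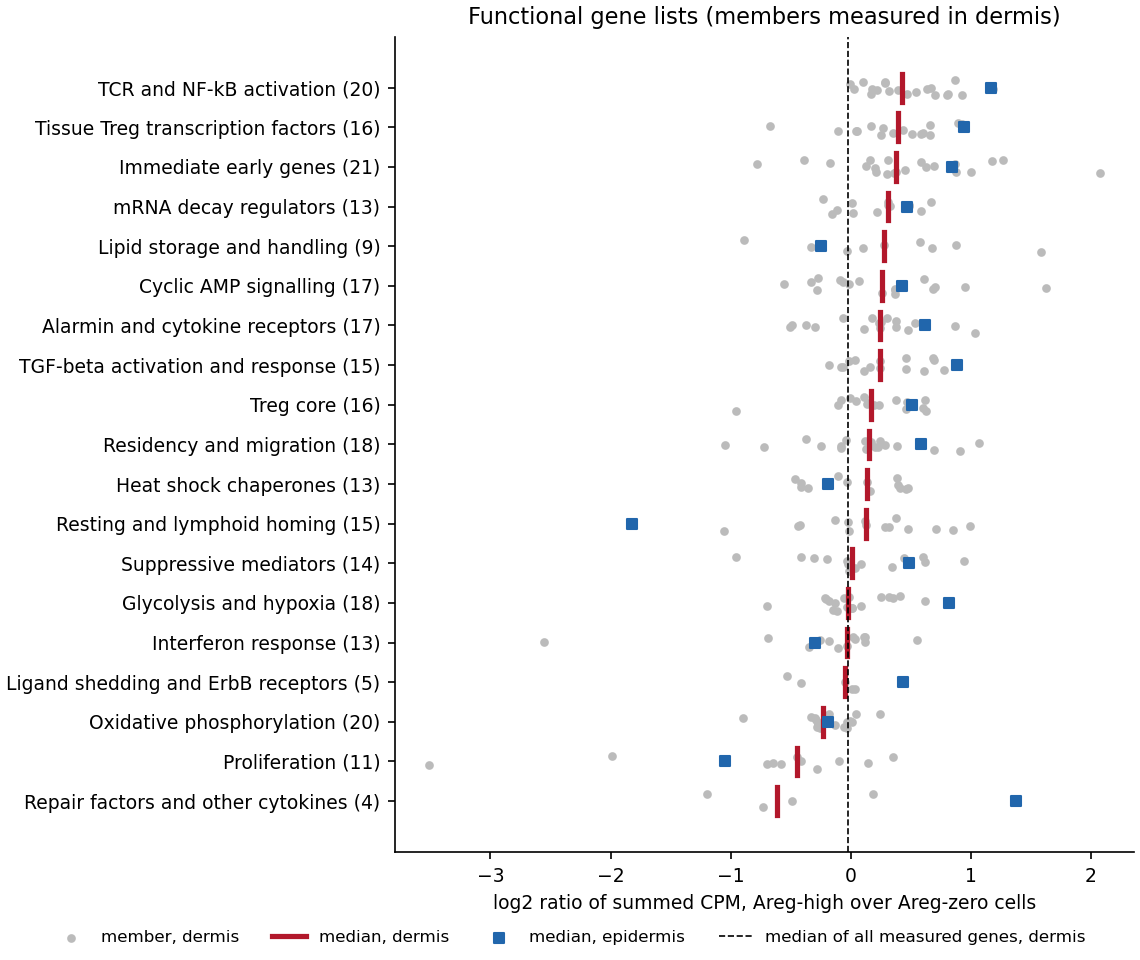
Log2 ratio of summed CPM, Areg-high over Areg-zero cells, for the members of each functional list measured in dermis (grey points), their dermal median (red bar) and the epidermal median (blue square). The dashed line is the dermal median of all measured genes, -0.02. The dermal medians run from 0.43 for T cell receptor and NF-kB genes to -0.61 for repair factors, of which 4 were measured.

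Among the 30 lower genes the lowest ratio was that of B930036N10Rik, at 58.9 against 174 CPM, a ratio of 0.339. It was left out of the ranking as a predicted gene. The lowest of the ranked genes was Txnip, which binds thioredoxin and restrains glucose uptake. Txnip stood at 114 CPM in the Areg-high and 312 CPM in the Areg-zero cells, a ratio of 0.365 (0.273 to 0.479). A Txnip UMI was seen in 31 of 84 Areg-high cells, with a highest value of 818 CPM, and in 220 of 372 Areg-zero cells, with a median of 205 and a highest value of 2616. Thinned shares were 13.3% (6.81 to 22.5%) and 35.8% (30.8 to 41.0%), so a smaller share of Areg-high cells had a Txnip UMI at equal depth. Clec2d, the ligand of an inhibitory NK cell receptor, was at 82.4 against 201 CPM, with thinned shares of 7.23% (2.70 to 15.1%) and 28.5% (23.8 to 33.5%). Usp34, a deubiquitinase, Sesn1, a stress-induced regulator of mTORC1, and Dbi, an acyl-CoA binding protein, had ratios of 0.493, 0.572 and 0.545. Hist1h2ap, at 0.466, belongs to a family of near-identical histone genes, and its ratio was above 1, at a log2 value of 0.40, when the mitochondrial limit was 5%.

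The cells between the extremes were then compared with each other. This comparison shares no cell with the first, but it uses the same library and the same Areg score. Of the 191 lower cells 110 had 1 Areg UMI, and among those the score varied only with depth. In the level series below, the Areg-zero and Areg-high values repeat the first comparison. Among Areg-positive cells under the cut, 11 of 1505 genes were counted as higher in the upper against the lower 191 cells (0.731%) and 7 as lower (0.465%). Of the 112 genes higher in Areg-high cells, 94 (83.9%) were above 1 in this comparison too, with a median log2 ratio of 0.20, and 4 were counted. Over all genes at 20 CPM or more in 1 group, a wider set than the 100 CPM behind the 112, 2711 of 5601 were above 1. Of the 30 lower genes, 21 (70.0%) were below 1. Neurl3 went from 184 CPM in Areg-zero cells through 277.9 and 323 CPM to 438 CPM. Junb went from 2792 through 3485 and 4282 to 5120 CPM, and Txnip from 312 through 278 and 234 to 114 CPM. For Cd83 the step between the middle groups was small, 372 to 399 CPM, beside 279 and 634 CPM at the ends. Fosl2 was at 80.4 and 70.7 CPM in the lower groups and at 113 and 161 CPM in the upper ones.

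**Figure D4:**
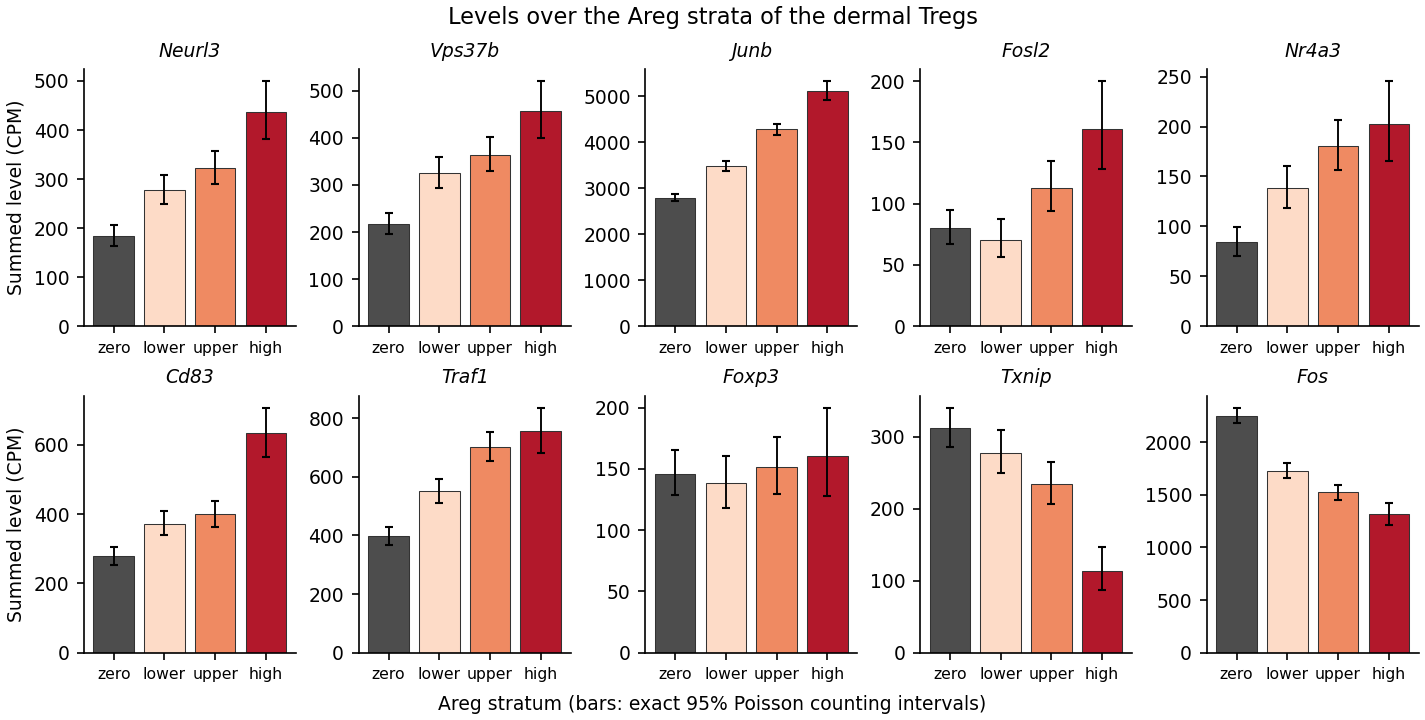
Summed level in CPM of 10 genes in Areg-zero cells (372), the lower and upper Areg-positive cells under the cut (191 each) and Areg-high cells (84), with exact 95% Poisson counting intervals. Neurl3 steps up from 184 to 438 CPM and Txnip down from 312 to 114 CPM, while Foxp3 stays between 138 and 161 CPM.

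Within the 84 members, the 42 cells with the higher scores had 5065 CPM of Areg and the 42 with the lower scores 2715 CPM. The genes above did not follow Areg further as a group: the activation list had a median log2 ratio of 0.00 between these sets, and Neurl3 stood at 464 against 417 CPM. Several genes were lower in the upper set, Gzmb at 329 against 678 CPM, Hilpda at 54.1 against 188 CPM, Ets2 at 58.6 against 167 CPM and Nr4a3 at 144 against 247 CPM. Nr4a2, at 149 against 62.6 CPM, and Txnip, at 180.2 against 62.6 CPM, were higher there. These 6 genes were picked after their values were seen, and their values rest on 12 to 195 UMIs per set. The largest ratio among the named genes was that of Hspa1b, a heat shock chaperone, at 523 against 6.95 CPM. It rested on 116 against 2 UMIs, and 7.14% of the Areg-high cells had a UMI of it. The heat shock list had 3 of 13 genes higher in the upper set and 0 lower, with a median log2 ratio of 0.35.

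The same rule was applied to the other libraries. In epidermis it gave 28 Areg-high cells of 271, with a cut at 1384 CPM, and 174 Areg-zero cells. Their Areg UMIs ranged from 3 to 138 with a median of 20, and the summed level was 4679 CPM. Of 1670 genes, 374 were counted as higher (22.4%) and 130 as lower (7.78%), so large ratios were more frequent there than in dermis. With TMM scaling the counts were 277 and 198, with median-of-ratios scaling 286 and 195, and without mitochondrial and ribosomal protein genes in the totals 390 and 352. The median log2 ratio over all genes was 0.07, and -0.05 with TMM. Of the 28 Areg-high epidermal cells, 4 carried a barcode shared with dermis, and 2 of these were deeper in dermis. Without the shared barcodes 466 and 154 genes were counted.

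The epidermal groups differed in more than Areg. Xist without any Y-linked UMI was found in 82.1% of the Areg-high and 31.6% of the Areg-zero cells, and the immediate early shares were 1.38% and 0.728% of summed UMIs. Genes of resting, lymphoid-homing T cells were lower in the Areg-high epidermal cells: 11 of 21 were counted so, among them Ccr7, at 14.8 against 198 CPM, and the list's median log2 ratio was -1.82. Of all 6031 genes measured in epidermis, 130 were counted as lower and 374 as higher. In dermis the median of the resting list was 0.13. The part of these differences in the epidermal counts was not tested.

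Set side by side, 101 of the 112 genes higher in dermis (90.2%) were above 1 in epidermis, with a median log2 ratio of 1.10. Over all genes at 20 CPM or more in 1 group, again a wider set, 3243 of 6031 were above 1. Of the 112, 76 were counted as higher there, which is 67.9% of the dermal and 20.3% of the epidermal genes. Cd83 was at 629.8 against 110 CPM in epidermis, Mxd1, a partner of Max that opposes Myc, at 443 against 97.3 CPM, and Junb at 4300 against 1619 CPM. Of the 30 lower genes 21 were below 1 and 4 were counted as lower in epidermis, Txnip among them at 123 against 288 CPM. Fos was at 566 against 581 CPM and Clec2d at 305 against 372 CPM, neither counted. The activation list had 17 of 21 genes counted as higher in epidermis, with a median of 1.17. The difference between the tissues was not tested, since each is 1 library.

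In lymph node Areg was nearly absent. Of 9305 kept cells 83 carried an Areg UMI, which is 0.892% (0.711 to 1.10%) at a median depth of 3034 UMIs, and 59 of these had a single UMI. The summed level over the kept cells was 4.34 CPM, beside 762 CPM in dermis and 529 CPM in epidermis. The 90th percentile of the score was 0 there, so the rule took all 83 as Areg-high. The lymph node library differed from the skin libraries in kit and tissue handling as well as in tissue, and these cannot be told apart.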

How the data were processed

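Tregs were sorted from mouse back-skin epidermis, dermis and lymph node, and 1 10x 3' library per tissue was analysed, with 1077, 360 and 9419 barcodes in dermis, epidermis and lymph node over 27998 genes. The deposited matrices hold whole UMI counts per gene and barcode, made with Cell Ranger, version 4.0.0 per the file headers of the skin libraries; none is stated for lymph node in the sources used here. The build was mm10 per the submitters' processing notes. Median depth was 4813, 7052 and 3034 UMIs per kept cell.

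From these counts, UMIs were summed over cells and scaled to CPM. The interval of a ratio is the exact binomial split of the UMIs at 95%, that of a level the exact Poisson one, and that of a share Clopper-Pearson. UMIs of 1 library are not replicates, so these cover counting error only. A gene at 0 in 1 group was bounded with a floor of 3 counts over the group. Shares were compared after thinning each cell to 1500 UMIs, which left 83 Areg-high and 355 Areg-zero cells. Calls needed 1.5-fold and 100 CPM, and list medians 20 CPM in 1 group. Doublets were called with Scrublet, which marked 6 kept dermal cells (0.716%), none Areg-high and 3 Areg-zero. It marked 20 kept epidermal cells (7.38%), 2 of them Areg-high and 12 Areg-zero. All of these were left in, and values without them were computed. The sums were tested on simulated data. Promoters and gene positions came from RefSeq GRCm38.p6 and the GENCODE vM21 annotation. The alternatives were other cuts, filters, scalings, thresholds and comparison cells, and dropping the barcodes found in both skin libraries. The last was chosen after seeing the data. Where a cell filter was changed or added, the Areg-high cells were chosen anew at the same percentile of the cells left. They were then not always the main Areg-high cells.

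The members and the gene lists were chosen with earlier results of these data known. Named genes were a list of 16, the 12 highest and 12 lowest ranked dermal ratios, and up to 4 of each of 20 lists, 95 in all. The ranking took genes with at least 100 CPM in the higher group. Left out of it were mitochondrial, ribosomal protein, keratin, haemoglobin, immune receptor, sex-linked and other-type marker genes. Predicted genes with Gm, Rik or accession-like names were left out too. Python 3.11.15, numpy 2.4.6, pandas 2.3.3, scipy 1.17.1, scanpy 1.11.5 and matplotlib 3.10.9 were used, with edgeR 4.0.16 in R 4.3.3 only for TMM factors as an alternative scaling.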

Additional observations from a re-analysis of the deposited data

Results flagged for a closer look

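For 3 genes named above or among the counted genes, the Areg-high to Areg-zero ratio was past 1.5-fold in opposite directions in dermis and epidermis, and the difference was not tested, since each tissue is 1 library. Klf2, a factor of quiescence and lymphoid homing, had a dermal ratio of 1.63, with 1933 against 1183 CPM, and an epidermal ratio of 0.444, with 408 against 921 CPM. Tpi1, a glycolytic enzyme, had a dermal ratio of 0.619, with 139 against 225 CPM, and an epidermal ratio of 1.54, with 364 against 237 CPM. Gm12840, an unnamed gene model, had a dermal ratio of 2.08, with 265 against 128 CPM, and an epidermal ratio of 0.222, with 44.3 against 199 CPM.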

How the results depend on the processing

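No paired analysis was possible because each tissue has 1 library, so the groups share only 1 replicate number. With 1 library per tissue no library could be left out, and the comparison of Y-linked cells was not run in dermis, where 6 Areg-high cells lay under the minimum of 10. Of 2139 values of named genes under the alternatives 1967 kept their side, 171 moved and 1 turned: Hist1h2ap had a log2 ratio of 0.40 with a mitochondrial limit of 5%. Of 437 list medians 2 moved, T cell receptor and NF-kB genes in dermis to 0.23 against all cells under the cut and heat shock chaperones to -0.51 in cells at or below the median immediate early share. Ccrl2, Mxd1, Nr4a3, Neurl3, Cd83, Vps37b, Fosl2, Cxcr4, Txnip and Clec2d were counted in the same direction under all 23 dermal alternatives, while Skil was counted under 12, Rora and Sik1 under 14, Ly6a under 15 and Ahr, Id2 and Nr4a2 under 16. Against all cells under the cut 21 of 49 named calls were kept, as with a 2-fold limit.

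The dermal count of 112 higher genes became 38 against all cells under the cut, 237 with thinning, 220 in cells of low immediate early share, 221 with a minimum of 50 CPM, 1644 with no minimum and 21 at 2-fold. The 30 lower genes became 9, 128, 107, 158, 2160 and 7 in the same order, 16 with members from the 80th and 68 from the 95th percentile, 64 in cells with a Foxp3 UMI, 54 as a mean over cells and 87 without mitochondrial and ribosomal protein genes. The epidermal 374 higher genes became 837 with thinning, 725 with 50 CPM, 2663 with no minimum, 168 at 2-fold and 655 in cells showing Y-linked UMIs without Xist. The epidermal 130 lower genes became 290, 383, 1833, 46 and 271 in that order, 86 and 202 from the 80th and 95th percentiles, 245 with a Foxp3 UMI, 198 with TMM, 352 without mitochondrial and ribosomal protein genes and 231 in cells showing Xist without Y-linked UMIs. Without thinning the share of cells with a UMI differed by 16.1 percentage points for Foxp3 and 15.9 for Il1rl1. Under a changed or added cell filter the Areg-high cells were chosen anew, so the cells compared could change too. Apart from this, and from fewer or more genes tested under other thresholds, the cause was not tested. Requiring 3 Areg UMIs or at most 3% of UMIs on other-type markers left the same cells. Depth limits single cells: 3 counts at the median depth of Areg-zero cells are 709 CPM.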
